A study of Mus musculus with 93 samples.

Results

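The 10 genes described here are genes of liver endothelium, set in 2 groups of which the vascular one holds Pecam1 and Kdr, also made by sinusoids. They were chosen by symbol, 5 for the sinusoids (Stab1, Stab2, Lyve1, Clec4g and Fcgr2b) and 5 for vascular endothelium (Pecam1, Vwf, Cd34, Kdr and Plvap), from the 53465 genes counted in each liver. All 10 were found and all 10 were among the 19110 genes tested. Liver RNA came from 93 male mice of 7 inbred strains, the domesticated 129S1/SvImJ, A/J, C57BL/6J and DBA/2J and the wild-derived CAST/EiJ, PWK/PhJ and WSB/EiJ. All mice were moved to 30°C (thermoneutrality, TN) at 6 wk of age, were fed either a control diet (CD, 10% of energy from fat) or a western diet (WD, 40% of energy from fat), both with 17% of energy from protein, from 7 wk, and were sacrificed at 24 wk after 17 wk of diet. CD-TN and WD-TN mice numbered 7 and 6 in 129S1/SvImJ, 5 and 6 in A/J, 8 and 8 in C57BL/6J, 7 and 8 in CAST/EiJ, 6 and 7 in DBA/2J, 6 and 7 in PWK/PhJ, and 6 and 6 in WSB/EiJ. The labels give no transgene, deletion or drug in any group. Livers were perfused with saline before collection, and each library is a piece of whole liver from 1 mouse. Levels are given as CPM, the counts of a gene scaled to a common library size with TMM factors, and a gene was called upregulated or downregulated at a limma-voom adjusted p below 0.05 over all genes tested. Log2 fold changes are those of WD-TN over CD-TN.

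Liver sinusoids are lined by a specialised endothelium with open pores and no continuous basement membrane, which clears macromolecules from blood through scavenger receptors, lectins and Fc receptors. The endothelium of arteries, portal and central veins and of capillaries elsewhere is continuous, rests on basement membrane and carries proteins such as von Willebrand factor and CD34. In chronic liver injury sinusoidal endothelium can lose its pores and take on features of continuous endothelium, a change known as capillarization.

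RefSeq promoter windows (GRCm38.p6) were at hand for 6 of the 10 genes (Stab1, Stab2, Clec4g, Fcgr2b, Cd34 and Kdr). The windows of 3 are shown as examples, from 250 to 11 bases before the start. Kdr and Clec4g were both downregulated by WD-TN in C57BL/6J and DBA/2J, and Cd34 was upregulated in C57BL/6J. Fcgr2b, downregulated in the same pair of strains, is not shown, and a tie of any motif to the diet was not tested. They lie at chr5:75978466-75978705 on the minus strand (Kdr), chr8:3720662-3720901 on the minus strand (Clec4g) and chr1:194938571-194938810 on the plus strand (Cd34), and are written 5′ to 3′ on the strand of the gene. Capitals mark the letters AGGAAG and CGGAAG, which hold the core bound by ETS factors, AGATAA, bound by GATA factors, and CCACCC, bound by KLF factors, on either strand.
Kdr: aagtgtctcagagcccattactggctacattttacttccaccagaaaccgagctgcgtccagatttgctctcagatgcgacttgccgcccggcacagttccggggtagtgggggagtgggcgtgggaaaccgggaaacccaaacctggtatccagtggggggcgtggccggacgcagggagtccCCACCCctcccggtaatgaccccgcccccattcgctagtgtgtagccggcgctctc
Clec4g: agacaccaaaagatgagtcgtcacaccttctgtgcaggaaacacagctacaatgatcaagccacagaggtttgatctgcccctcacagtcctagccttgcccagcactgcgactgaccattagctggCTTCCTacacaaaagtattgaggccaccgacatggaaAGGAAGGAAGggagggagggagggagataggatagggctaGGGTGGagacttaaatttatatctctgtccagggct
Cd34: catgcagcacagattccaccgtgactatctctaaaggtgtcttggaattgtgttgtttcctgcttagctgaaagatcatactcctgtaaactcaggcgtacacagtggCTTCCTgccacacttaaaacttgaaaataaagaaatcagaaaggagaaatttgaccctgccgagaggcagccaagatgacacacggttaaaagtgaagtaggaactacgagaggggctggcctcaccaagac
The Kdr window held CCACCC 66 to 61 bases before the start. The Clec4g window held it on the opposite strand 46 to 41 bases before the start, and AGGAAG at 3 places, of which a pair overlapped by 2 bases. The Cd34 window held AGGAAG once, on the opposite strand, and no CCACCC. Of 32851 promoter windows of the same length in the RefSeq table, 27.0% held CCACCC, 28.4% AGGAAG, 12.7% CGGAAG and 9.74% AGATAA on either strand. AGATAA was in none of the 6 windows. CCACCC was also in the window of Fcgr2b, and AGGAAG in those of Stab1 and Stab2. A match describes the letters and is no site.

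Each library held between 40020424 and 49894856 reads on genes (median 46618609), and the smallest count of any of the 10 genes in any mouse was 44, for Cd34. The 11 tested hepatocyte markers summed to between 76303 and 229742 CPM in every mouse. A pair of C57BL/6J mice, CD mouse 2 and WD mouse 3 (numbered in the order of the samples), lay farthest from their groups over all genes tested, with root mean square distances of 0.960 and 0.656 on the log2 scale against a median of 0.380 over all mice. Their markers of stellate cells and fibroblasts summed to 1064 and 1270.1 CPM, where the other mice of their groups had 373 to 542 and 371 to 821 CPM, and their markers of lipid-associated and recruited macrophages to 737 and 623 CPM against 46.3 to 217 and 76.7 to 357 CPM. PWK/PhJ CD mouse 5 was the lowest of its group in 9 of the 10 genes, and its pan-endothelial genes summed to 353 CPM and its Kupffer cell markers to 68.6 CPM, against 487 to 558 and 257 to 437 CPM in the other mice of its group. Results that rest on these 3 mice are given with and without them, a check added after the values were seen. PWK/PhJ CD mouse 5 was picked for its low values in these genes and lists. It was not among the 10 mice farthest from their groups over all genes tested. Calls gained by leaving it out follow in part from that choice and are no separate evidence.

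**Figure D1:**
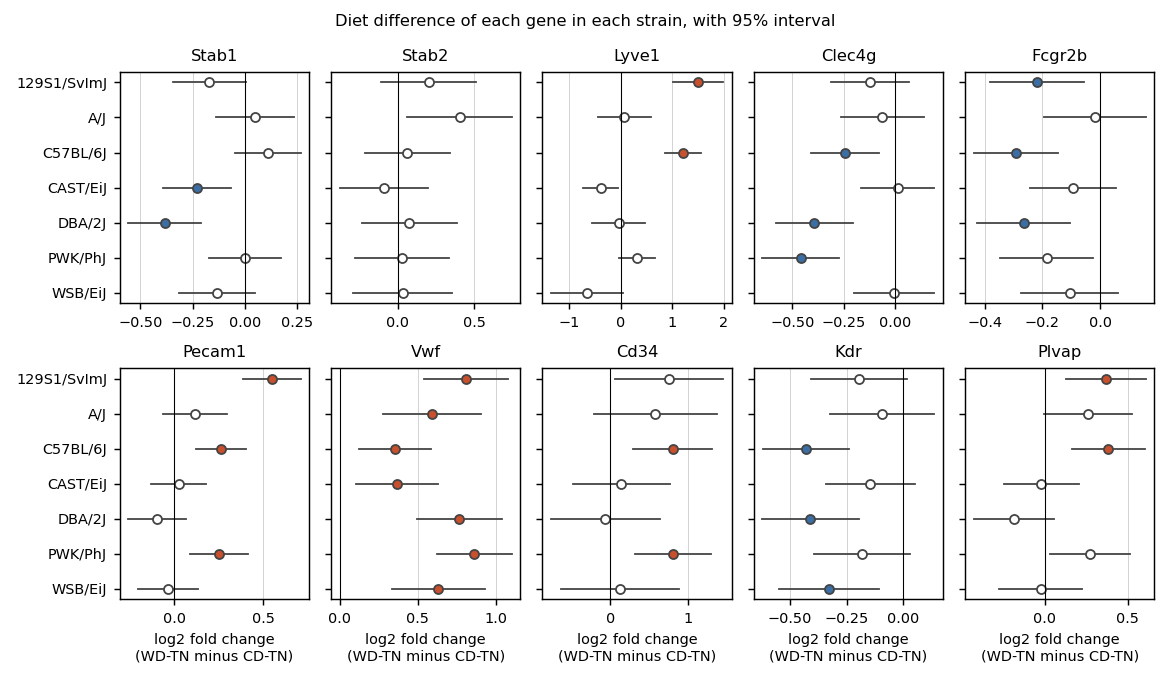
Log2 fold change of WD-TN against CD-TN (horizontal axes, each panel with its own scale) of each of the 10 genes in each of the 7 strains, with 95% intervals from limma-voom. Filled points passed an adjusted p below 0.05 (red upregulated, blue downregulated), which Vwf did in all 7 strains, and Kdr and Fcgr2b lay to the left of 0 in all 7.

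WD-TN did not move the 10 genes as one group. Vwf, which encodes the clotting protein von Willebrand factor, was upregulated in all 7 strains, by 0.36 to 0.86 on the log2 scale. Kdr (VEGF receptor 2) and Fcgr2b (the inhibitory Fc receptor of the sinusoids) had negative log2 fold changes in all 7 strains and each passed the test in 3. Lyve1, a hyaluronan receptor, rose the most, in 129S1/SvImJ and C57BL/6J, and was called in no other strain. Stab2 passed in none by limma-voom, edgeR or DESeq2 (in 1 strain at an unadjusted p below 0.05, A/J), and Stab1, Clec4g, Pecam1, Cd34 and Plvap passed in 2 or 3 strains, each in 1 direction.

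The largest number of calls was in C57BL/6J, with 5 genes upregulated (Lyve1, Pecam1, Vwf, Cd34 and Plvap) and 3 downregulated (Clec4g, Fcgr2b and Kdr), where 26.2% of all genes tested were called. This order depended on the fit, as C57BL/6J had 3 calls and 129S1/SvImJ 9 with a separate fit for each strain, and both had 8 with sample quality weights. In 129S1/SvImJ 4 were upregulated (Lyve1, Pecam1, Vwf and Plvap) and 1 downregulated (Fcgr2b), with 28.0% of all genes called. DBA/2J went mostly the other way, with 1 upregulated (Vwf) and 4 downregulated (Stab1, Clec4g, Fcgr2b and Kdr), beside 18.0% of all genes. In PWK/PhJ 3 were upregulated (Pecam1, Vwf and Cd34) and 1 downregulated (Clec4g), and 29.6% of all genes were called there. WSB/EiJ had Vwf up and Kdr down, against 8.94% of all genes, CAST/EiJ had Vwf up and Stab1 down, against 19.5%, and A/J had Vwf up alone, against 9.03%. With 1, 2 and 4 of 10 genes called, A/J, CAST/EiJ and PWK/PhJ were near these shares of all genes. Without the 3 mice named above the counts were 8 in C57BL/6J, 7 in 129S1/SvImJ (Kdr and Cd34 in addition), 5 in DBA/2J, 5 in PWK/PhJ (Fcgr2b and Kdr in addition, Pecam1 not), 3 in CAST/EiJ (Lyve1 in addition), 2 in A/J (Stab2 in addition) and 2 in WSB/EiJ. Mice of a strain came in 2 or 3 numbered cohorts. For the 27 called combinations of gene and strain, the difference within a cohort had the sign of the call in all 56 comparisons. The same mice gave the calls, so this is no replication. Some of these differences were near 0, as for Vwf in C57BL/6J cohort 2 (0.05) and Pecam1 in PWK/PhJ cohort 1 (0.04), and CAST/EiJ cohort 1 held 1 CD-TN mouse. The median log2 fold change of the 5 vascular genes was above that of the 5 sinusoidal ones in every strain, the widest gap being in 129S1/SvImJ (0.55 against -0.12), while the median over all genes tested was between -0.01 and 0.02 in the 7 strains. In bulk liver, fewer endothelial cells and less RNA of a gene per cell cannot be told apart. The labels give each mouse as a sample of its own. The limma-voom p-values rest on the spread between mice within groups, pooled over the 14 groups as 1 variance per gene.

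**Figure D2:**
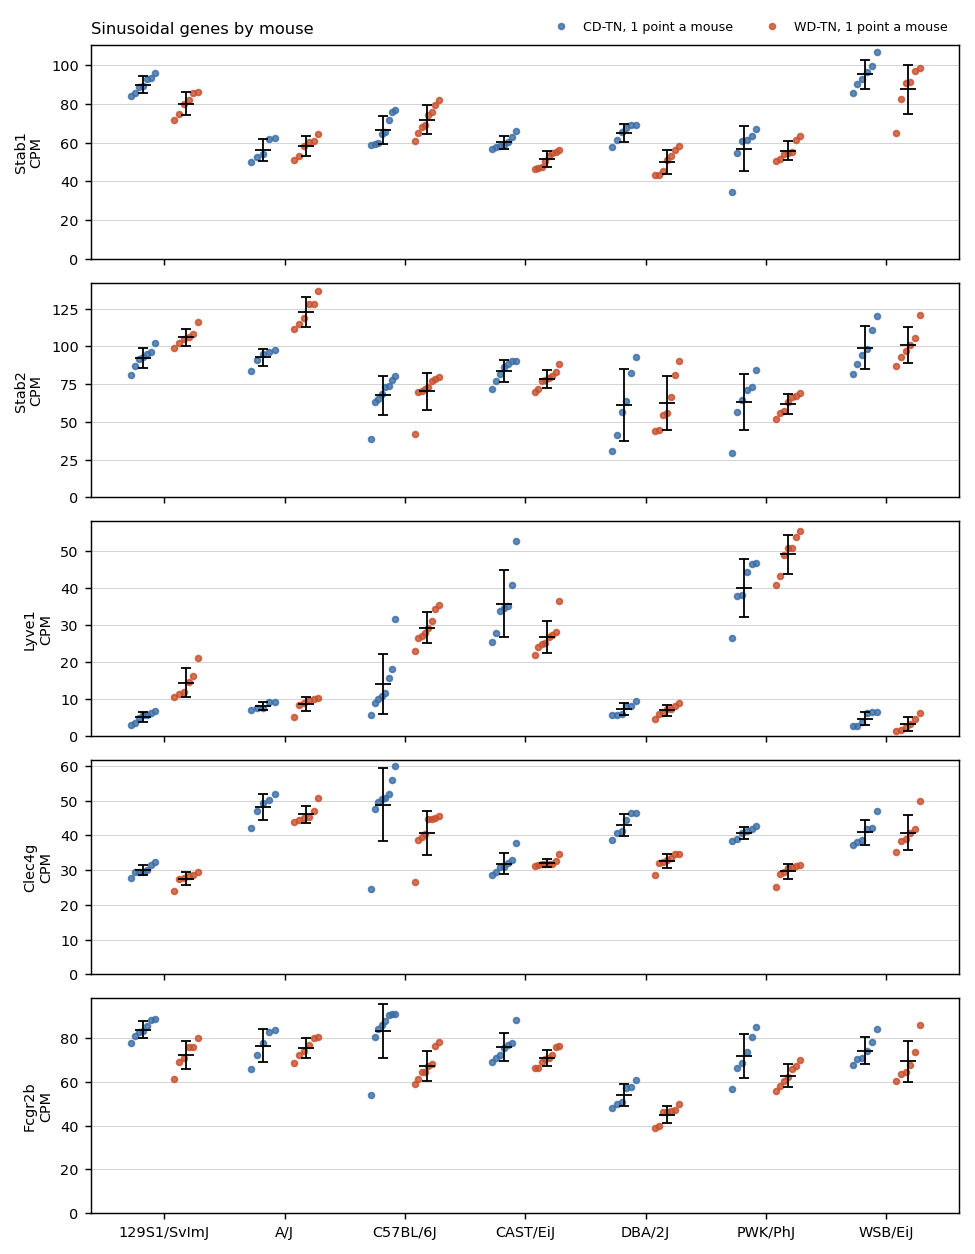
CPM (vertical axes, from 0) of the 5 sinusoidal genes in each of the 93 mice, by strain on the horizontal axis, with CD-TN in blue and WD-TN in red. Black bars show the mean and SD of a group. The Lyve1 panel shows the 129S1/SvImJ mice on WD-TN above all those on CD-TN, and the Stab2 panel the wide spread of DBA/2J.

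Stab1 and Stab2 encode the scavenger receptors stabilin-1 and stabilin-2, which take up modified lipoproteins, hyaluronan and other waste from blood. Stab1 (ENSMUSG00000042286, chr14:31139013-31168641, minus strand of GRCm38) was downregulated in DBA/2J and CAST/EiJ. In DBA/2J the lowest, median and highest mouse had 57.8, 66.6 and 69.3 CPM on CD-TN and 43.2, 51.2 and 58.0 CPM on WD-TN, so that the groups met only at the lowest CD-TN mouse, with a log2 fold change of -0.38 ± 0.09 (SE, adjusted p = 0.00069). In CAST/EiJ the mice had 56.6, 58.9 and 66.0 CPM on CD-TN and 46.6, 51.8 and 56.4 CPM on WD-TN, and all 8 mice on WD-TN lay below all 7 on CD-TN. The CAST/EiJ difference was small, with a log2 fold change of -0.23 ± 0.08 (SE, adjusted p = 0.035), and it missed the threshold under 4 of 12 alternatives. In the other 5 strains the log2 fold changes of Stab1 were between -0.17 (129S1/SvImJ) and 0.11 (C57BL/6J). An exon of Nt5dc2 overlaps Stab1 on the opposite strand. Whether reads were counted by strand is not given in the sources used here, but Nt5dc2 had a median count of 367 against 3043 for Stab1. Overlapping antisense genes of Stab2, Clec4g, Fcgr2b and Cd34 had median counts of 9, 4, 1 and 4.

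Stab2 (ENSMUSG00000035459, chr10:86841198-87008025, minus strand) was not called in any strain. In A/J its level was 84.0, 91.1, 94.8, 96.4 and 97.4 CPM in its 5 mice on CD-TN and 111, 123 and 137 CPM in the lowest, median and highest mouse on WD-TN. The 6 WD-TN mice thus all exceeded the 5 CD-TN mice, but the log2 fold change of 0.40 (standard error 0.17) did not pass in the fit over all strains (limma-voom adjusted p = 0.13), where 1 variance per gene is shared by all groups. Without the 3 mice that stood apart it was 0.41 (adjusted p = 0.037), and in a fit of A/J alone 0.41 (adjusted p = 0.0023). Stab2 varied widely in DBA/2J, where CD-TN mice had 30.9, 59.95 and 92.96 CPM and WD-TN mice 43.7, 55.9 and 90.1 CPM at the lowest, median and highest, coefficients of variation of 38.6% and 28.5%. In 129S1/SvImJ the coefficients were 7.41% and 5.45%. The DBA/2J mice with high and low Stab2 were found on both diets.

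Lyve1 (ENSMUSG00000030787, chr7:110850607-110863239, minus strand) encodes a receptor for hyaluronan that is made by sinusoidal and lymphatic endothelium and by some resident macrophages. In 129S1/SvImJ it had 2.94, 5.68 and 6.77 CPM in the lowest, median and highest mouse on CD-TN and 10.6, 13.3 and 21.2 CPM on WD-TN. The groups did not overlap, and the mean went from 5.10 ± 1.38 CPM (SD, n = 7) on CD-TN to 14.3 ± 3.95 CPM (SD, n = 6) on WD-TN, a log2 fold change of 1.51 ± 0.24 (SE, adjusted p = 1.2e-06). In C57BL/6J CD-TN mice had 5.75, 11.2 and 31.5 CPM and WD-TN mice 22.9, 28.5 and 35.3 CPM, with a log2 fold change of 1.21 ± 0.17 (SE, adjusted p = 5.0e-08). The one CD-TN mouse within the range of WD-TN was CD mouse 2, and without it and WD mouse 3 the means were 11.5 ± 4.12 CPM (SD, n = 7) and 29.6 ± 4.36 CPM (SD, n = 7), with the log2 fold change at 1.44 (adjusted p = 1.4e-10). Within C57BL/6J the difference was 0.60 in cohort 1 and 1.69 in cohort 2, and the mouse that stood apart on CD-TN was in cohort 1.

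In CAST/EiJ and PWK/PhJ, in which Lyve1 was highest on CD-TN, it was not called. In CAST/EiJ mice had 25.3, 34.5 and 52.7 CPM on CD-TN and 22.0, 25.8 and 36.4 CPM on WD-TN, a log2 fold change of -0.39 (adjusted p = 0.090), which came to -0.39 (adjusted p = 0.047) when the 3 mice were left out. In PWK/PhJ the mice had 26.5, 41.2 and 46.8 CPM and 40.8, 50.6 and 55.3 CPM, a log2 fold change of 0.31 (adjusted p = 0.17). In WSB/EiJ, where Lyve1 was lowest, it was -0.66 (adjusted p = 0.28), and in DBA/2J and A/J it was -0.04 and 0.07. Kupffer cell markers rose in the same pair of strains as Lyve1, and in PWK/PhJ as well. Of 11 tested, 8 rose in 129S1/SvImJ, 5 in C57BL/6J, 6 in PWK/PhJ and 1 in CAST/EiJ, and none fell in any strain, and without the 3 mice these counts were 8, 6, 5 and 1. The summed level of the 11 markers was 235 to 384 CPM on CD-TN and 432 to 630.2 CPM on WD-TN in 129S1/SvImJ and 392 to 772 CPM on CD-TN and 636 to 1141 CPM on WD-TN in C57BL/6J, and Folr2 was the only one with no read in some mice (2 of 93). Timd4, one of the 11 Kupffer cell markers, was not called in 129S1/SvImJ (0.40) or C57BL/6J (-0.05). Nor were the lymphatic genes Pdpn (0.71 and 0.30) and Mmrn1 (0.75 and 0.31), and Ccl21a had no read in any mouse. The part of these cells in the Lyve1 difference was not tested.

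Clec4g (ENSMUSG00000074491, chr8:3707064-3720651, minus strand) encodes LSECtin, a lectin of sinusoidal endothelium that binds glycoproteins of pathogens and of cells. It was downregulated in PWK/PhJ, DBA/2J and C57BL/6J. In PWK/PhJ the lowest, median and highest mouse had 38.4, 41.1 and 42.6 CPM on CD-TN and 25.2, 30.5 and 31.5 CPM on WD-TN, without overlap, a log2 fold change of -0.46 ± 0.09 (SE, adjusted p = 7.2e-05). In DBA/2J the values were 38.6, 42.8 and 46.5 CPM and 28.7, 33.0 and 34.7 CPM, again without overlap, a log2 fold change of -0.39 ± 0.09 (SE, adjusted p = 0.0013). In C57BL/6J the values were 24.6, 50.6 and 59.9 CPM and 26.7, 42.5 and 45.5 CPM, overlapping, and the lowest mouse of each diet was the one that stood apart. The C57BL/6J log2 fold change was -0.24 (adjusted p = 0.023) with them and -0.28 (adjusted p = 5.1e-05) without them, and with cohort as a covariate it was -0.17 (adjusted p = 0.12), so that 3 of 12 alternatives lost this call. In the other 4 strains it was between -0.12 (129S1/SvImJ) and 0.02 (CAST/EiJ).

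Fcgr2b (ENSMUSG00000026656, chr1:170958617-170976547, minus strand) encodes the Fc receptor through which sinusoidal endothelium takes up immune complexes, and it is also made by B cells and macrophages. Its extracellular part closely resembles that of Fcgr3, and how reads matching both were counted is not given in the sources used here. Its log2 fold changes were negative in all 7 strains, from -0.29 to -0.02, and passed in C57BL/6J, DBA/2J and 129S1/SvImJ. In C57BL/6J the lowest, median and highest mouse had 54.0, 87.0 and 91.2 CPM on CD-TN and 59.1, 65.8 and 78.3 CPM on WD-TN, overlapping, a log2 fold change of -0.29 ± 0.07 (SE, adjusted p = 0.0013), and without the pair of mice that stood apart the log2 fold change was -0.36 (adjusted p = 2.5e-05). Within C57BL/6J the difference was -0.05 in cohort 1 and -0.51 in cohort 2. In DBA/2J, where 6 of 7 mice on WD-TN lay below all on CD-TN, the values were 47.9, 54.2 and 60.7 CPM and 38.9, 46.3 and 49.7 CPM, a log2 fold change of -0.26 ± 0.08 (SE, adjusted p = 0.014). In 129S1/SvImJ they were 77.7, 83.1 and 88.8 CPM and 61.5, 73.4 and 80.1 CPM, with 5 of 6 mice on WD-TN below all on CD-TN, a log2 fold change of -0.22 ± 0.08 (SE, adjusted p = 0.034), a call that was lost under 3 of 12 alternatives. In PWK/PhJ the log2 fold change was -0.18 (adjusted p = 0.076), and it passed without CD mouse 5 (-0.25, adjusted p = 0.018), without the pair of C57BL/6J mice (-0.18, adjusted p = 0.041) and with sample quality weights (-0.21, adjusted p = 0.0097). The fit without CD mouse 5 is no separate evidence, as that mouse was picked for low values in genes that include Fcgr2b. B cell markers were low, and the summed level of the 6 was 6.43 to 13.9 CPM on CD-TN and 4.81 to 13.6 CPM on WD-TN in C57BL/6J and 4.49 to 9.06 CPM on CD-TN and 2.43 to 7.26 CPM on WD-TN in DBA/2J. Of these 6, Pax5 fell in C57BL/6J (-0.68) and Cd22 rose in 129S1/SvImJ (0.78) and PWK/PhJ (1.17), and no other call was made in any strain. Over all genes tested 26.2% were called in C57BL/6J, 28.0% in 129S1/SvImJ and 29.6% in PWK/PhJ. The calls of B cell markers were not above these shares, which count both directions. The part of B cells in the Fcgr2b difference was not tested.

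**Figure D3:**
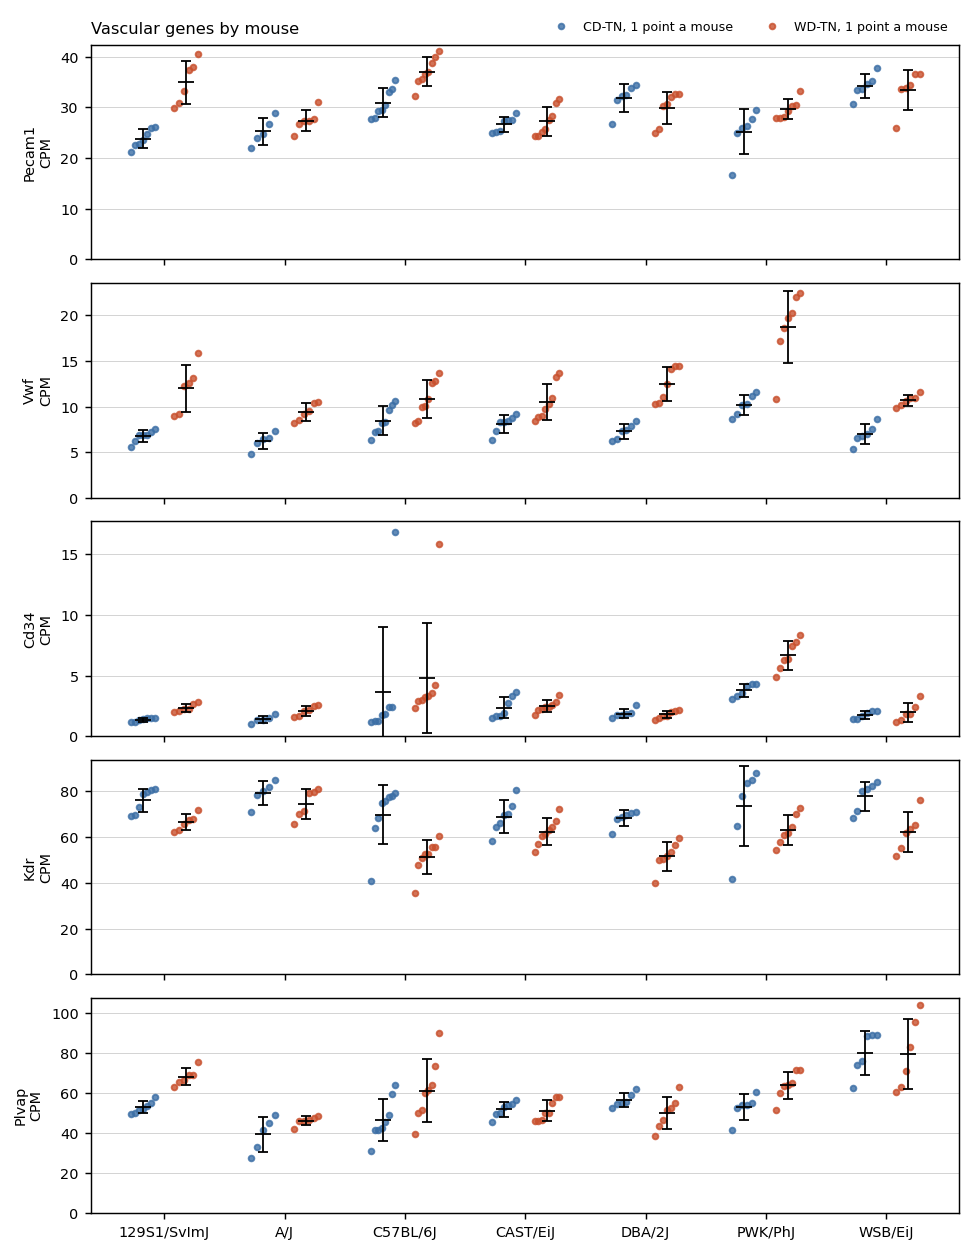
CPM (vertical axes, from 0) of the 5 vascular genes in each of the 93 mice, by strain on the horizontal axis, with CD-TN in blue and WD-TN in red. Black bars show the mean and SD of a group. Vwf lies higher on WD-TN in every strain, Kdr lower, and the pair of C57BL/6J mice near 16 CPM stands out in the Cd34 panel.

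Vwf (ENSMUSG00000001930, chr6:125546774-125686679, plus strand) was the only one of the 10 genes called in all 7 strains. The lowest, median and highest mouse in PWK/PhJ had 8.60, 10.2 and 11.6 CPM on CD-TN and 10.8, 19.7 and 22.4 CPM on WD-TN, the highest level of any group, and 6 of 7 WD-TN mice exceeded every CD-TN mouse. The mean went from 10.2 ± 1.13 CPM (SD, n = 6) on CD-TN to 18.7 ± 3.93 CPM (SD, n = 7) on WD-TN, a log2 fold change of 0.86 ± 0.12 (SE, adjusted p = 1.9e-08). In 129S1/SvImJ the values were 5.55, 6.87 and 7.53 CPM and 8.99, 12.4 and 15.9 CPM, a log2 fold change of 0.81 ± 0.14 (SE, adjusted p = 2.6e-06). In DBA/2J they were 6.27, 7.36 and 8.40 CPM and 10.3, 12.5 and 14.4 CPM, a log2 fold change of 0.76 ± 0.14 (SE, adjusted p = 1.4e-05). In these last 2 strains, as in WSB/EiJ and A/J, every mouse on WD-TN lay above every mouse on CD-TN.

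In WSB/EiJ Vwf had 5.32, 6.89 and 8.63 CPM on CD-TN and 9.82, 10.8 and 11.6 CPM on WD-TN, a log2 fold change of 0.63 ± 0.15 (SE, adjusted p = 0.0022). In A/J it had 4.81, 6.03, 6.47, 6.60 and 7.28 CPM in its 5 mice on CD-TN and 8.16, 9.39 and 10.5 CPM at the lowest, median and highest on WD-TN, a log2 fold change of 0.59 ± 0.16 (SE, adjusted p = 0.0091). The A/J call was lost in 1 of 11 fits that each left out 1 A/J mouse, the one without CD mouse 2 (adjusted p = 0.051). The difference was smallest in CAST/EiJ, at 0.37 (adjusted p = 0.038), and C57BL/6J, at 0.36 (adjusted p = 0.015), where the diets overlapped. The CAST/EiJ call was lost under 3 of 12 alternatives, with genes of any count (adjusted p = 0.076), sample quality weights (0.052) and a separate fit for each strain (0.062), and the C57BL/6J call under 1, the separate fit (0.072). Within C57BL/6J it was 0.58 in cohort 1 and 0.05 in cohort 2. Von Willebrand factor is also made by megakaryocytes and carried in platelets. Of the 4 tested platelet and megakaryocyte markers, Pf4 rose in 129S1/SvImJ (1.03) and C57BL/6J (0.75) and Itga2b fell in C57BL/6J (-0.30) and DBA/2J (-0.50), with no call in the other 4 strains. The summed level of the 4 markers was 3.02 to 4.97 CPM on CD-TN and 3.11 to 4.46 CPM on WD-TN in PWK/PhJ and 5.72 to 7.55 CPM on CD-TN and 4.62 to 6.19 CPM on WD-TN in DBA/2J. Gp1bb, Gp9 and Treml1 were too low to test, with no read in 41, 27 and 32 mice. The part of platelets in the Vwf difference was not tested.

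Kdr (ENSMUSG00000062960, chr5:75932827-75978458, minus strand) encodes VEGF receptor 2, the main receptor through which VEGF-A, made by hepatocytes, is known to keep sinusoids in their differentiated state. Its log2 fold changes were negative in all 7 strains and passed in C57BL/6J, DBA/2J and WSB/EiJ. In DBA/2J the lowest, median and highest mouse had 61.2, 68.9 and 70.8 CPM on CD-TN and 39.7, 51.6 and 59.3 CPM on WD-TN, without overlap, a log2 fold change of -0.41 ± 0.11 (SE, adjusted p = 0.0034). In C57BL/6J they had 40.9, 75.1 and 78.9 CPM and 35.4, 52.5 and 60.6 CPM, a log2 fold change of -0.43 ± 0.10 (SE, adjusted p = 0.00033). The lowest C57BL/6J mouse on each diet was the one that stood apart, and the other 7 on WD-TN lay below the other 7 on CD-TN, with means of 53.6 ± 4.07 CPM (SD, n = 7) and 73.8 ± 5.62 CPM (SD, n = 7). In WSB/EiJ the values were 68.4, 80.4 and 84.0 CPM and 51.6, 62.4 and 76.1 CPM, a log2 fold change of -0.33 ± 0.11 (SE, adjusted p = 0.046). In PWK/PhJ the log2 fold change was -0.18 (adjusted p = 0.20) with CD mouse 5 and -0.34 (adjusted p = 0.0075) without it, and it also passed with sample quality weights when that mouse was kept. CD mouse 5 had been picked for low values in genes that include Kdr, so the fit without it is no separate evidence.

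The ligands and other receptors of the VEGF family, apart from Flt4, were listed with Kdr, and 7 of the 8 could be tested, Pgf being too low. In PWK/PhJ, which had the most calls, 4 rose and 2 fell, the largest being Vegfd (1.38) and Vegfb (-1.04). In the other 6 strains none rose, and 3 fell in DBA/2J, 2 each in 129S1/SvImJ, C57BL/6J and WSB/EiJ, 1 in CAST/EiJ and 0 in A/J. Over all genes tested the shares called in either direction were 28.0% in 129S1/SvImJ and 26.2% in C57BL/6J. In both, 2 of 7 was near that share, while 13.6% and 11.9% of all genes fell there. The shares called were 29.6% in PWK/PhJ, 18.0% in DBA/2J, 8.94% in WSB/EiJ, 19.5% in CAST/EiJ and 9.03% in A/J. Vegfa, the ligand of Kdr, which like Flt1 and Flt4 was named after its values were seen, fell in 5 strains, with log2 fold changes of -0.48 in PWK/PhJ, -0.43 in WSB/EiJ, -0.24 in DBA/2J, -0.33 in 129S1/SvImJ and -0.34 in C57BL/6J. Its log2 fold change was -0.21 in A/J and -0.11 in CAST/EiJ, which did not pass. Flt1 (VEGF receptor 1) was called in no strain by limma-voom, with log2 fold changes between -0.25 (A/J) and -0.07 (129S1/SvImJ). Flt4 (VEGF receptor 3), held in the list of other sinusoidal genes, rose in PWK/PhJ (0.40, adjusted p = 0.0012) and was called in no other strain. Over the list the median log2 fold change was 0.29 in PWK/PhJ and between -0.24 and -0.07 in the others. Leaving out the 3 mice, the calls were 4 and 2 (up and down) in PWK/PhJ, 1 and 3 in C57BL/6J and 0 and 4 in DBA/2J.

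Pecam1 (ENSMUSG00000020717, chr11:106654217-106750628, minus strand) encodes the junction protein CD31, found on all endothelium and also on platelets and leukocytes. In 129S1/SvImJ the lowest, median and highest mouse had 21.2, 23.6 and 26.2 CPM on CD-TN and 29.9, 35.3 and 40.5 CPM on WD-TN, without overlap, a log2 fold change of 0.55 ± 0.08 (SE, adjusted p = 1.8e-07). In C57BL/6J they had 27.7, 30.0 and 35.5 CPM and 32.2, 36.9 and 41.2 CPM, with 6 of 8 WD-TN mice above every CD-TN mouse, a log2 fold change of 0.26 ± 0.07 (SE, adjusted p = 0.0033). In PWK/PhJ they had 16.7, 26.2 and 29.5 CPM and 27.9, 29.2 and 33.3 CPM, a log2 fold change of 0.25 ± 0.08 (SE, adjusted p = 0.013). The PWK/PhJ call rested on CD mouse 5, whose 16.7 CPM was the lowest of all 93 mice, and without it the log2 fold change was 0.14 (adjusted p = 0.18). In the other 4 strains it was between -0.10 (DBA/2J) and 0.12 (A/J). Kupffer cell markers rose in the same 3 strains, with the counts given above (in PWK/PhJ 6 of 11, and 5 of 11 without the 3 mice), and their part was not tested.

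Cd34 (ENSMUSG00000016494, chr1:194938819-194961279, plus strand) encodes a sialomucin of continuous and large vessel endothelium that is low in normal sinusoids and is also made by fibroblasts and blood progenitors. It was the lowest of the 10, with a median of 2.09 CPM over all mice. In PWK/PhJ the lowest, median and highest mouse had 3.08, 3.86 and 4.33 CPM on CD-TN and 4.89, 6.35 and 8.32 CPM on WD-TN, without overlap, a log2 fold change of 0.81 ± 0.25 (SE, adjusted p = 0.0073), which did not pass by edgeR (adjusted p = 0.059). In C57BL/6J they had 1.13, 1.78 and 16.8 CPM and 2.28, 3.29 and 15.9 CPM, a log2 fold change of 0.80 ± 0.26 (SE, adjusted p = 0.014), the highest of each diet being the mouse that stood apart. Without this pair the means were 1.72 ± 0.542 CPM (SD, n = 7) and 3.22 ± 0.610 CPM (SD, n = 7) and the log2 fold change 0.95 (adjusted p = 4.7e-06), while with them the call was lost under 4 of 12 alternatives, namely edgeR (0.41, adjusted p = 0.34), DESeq2 (0.42, adjusted p = 0.33), cohort as a covariate (0.56, adjusted p = 0.14) and a separate fit for each strain (0.81, adjusted p = 0.31). In 129S1/SvImJ all 6 mice on WD-TN, at 1.97, 2.22 and 2.79 CPM, lay above all 7 on CD-TN, at 1.13, 1.43 and 1.53 CPM, with a log2 fold change of 0.76 (adjusted p = 0.096) that passed without the pair of C57BL/6J mice, at 0.76 (adjusted p = 0.0013). In the other 4 strains it was between -0.06 (DBA/2J) and 0.58 (A/J).

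Markers of stellate cells and fibroblasts rose beside Cd34. Of 12 tested, 9 rose in PWK/PhJ, 5 in C57BL/6J, 4 in 129S1/SvImJ and 2 in A/J, and none fell in any strain. Over all genes tested 29.6% were called in PWK/PhJ, 26.2% in C57BL/6J, 28.0% in 129S1/SvImJ and 9.03% in A/J. The 129S1/SvImJ count was near that share, which counts both directions, and 14.5% of all genes rose there. In PWK/PhJ the collagen genes Col1a1 (4.01, adjusted p = 5.2e-09) and Col3a1 (3.32, adjusted p = 1.0e-12) rose the most. Dpt (2.16) and Pi16 (0.87), markers of fibroblasts that also make Cd34, rose too. Without the 3 mice 9 rose in PWK/PhJ and 6 in C57BL/6J. The summed level of the list was 176 to 273 CPM on CD-TN and 379.5 to 751 CPM on WD-TN in PWK/PhJ, 339.7 to 411 CPM on CD-TN and 414 to 513 CPM on WD-TN in 129S1/SvImJ and 373 to 1064 CPM on CD-TN and 371 to 1270.1 CPM on WD-TN in C57BL/6J, and none of its genes was at 0 in any mouse. Of 5 mesothelial markers, Msln rose in 129S1/SvImJ (0.81) and Wt1 in PWK/PhJ (1.11), with no other call. These counts were not above the shares of all genes called in either direction. The part of these cells in the Cd34 difference was not tested.

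Plvap (ENSMUSG00000034845, chr8:71497765-71511752, minus strand) encodes the protein of the diaphragms that span endothelial pores, which sinusoidal pores normally lack. In 129S1/SvImJ the lowest, median and highest mouse had 49.6, 52.04 and 58.2 CPM on CD-TN and 63.1, 67.7 and 75.3 CPM on WD-TN, without overlap, a log2 fold change of 0.37 ± 0.12 (SE, adjusted p = 0.017). In C57BL/6J they had 31.0, 43.8 and 63.7 CPM and 39.2, 60.8 and 90.1 CPM, with 3 of 8 WD-TN mice above every CD-TN mouse, a log2 fold change of 0.38 ± 0.11 (SE, adjusted p = 0.0050). Within C57BL/6J the difference was 0.64 in cohort 1 and 0.19 in cohort 2. In PWK/PhJ it was 0.27 (adjusted p = 0.081) and in A/J 0.26 (adjusted p = 0.22), which did not pass, and in DBA/2J it was -0.19. The PWK/PhJ difference passed without the pair of C57BL/6J mice (adjusted p = 0.048) but not without all 3 (adjusted p = 0.18).

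Whether the diet difference itself depended on the strain was tested across the 7 strains in the same limma-voom fit. It did for 5 of the 10 genes, beside 36.5% of all genes tested, namely Lyve1 (adjusted p = 4.1e-08), Pecam1 (6.9e-05), Stab1 (0.0062), Clec4g (0.0073) and Plvap (0.014). It did not pass for Vwf (0.054), Kdr (0.24), Fcgr2b (0.28), Cd34 (0.32) or Stab2 (0.55). Vwf was close to the threshold, and 5 of the 11 alternatives over all strains put it below, as did none of the 11 fits that each left out 1 A/J mouse. A call of Kdr, Fcgr2b or Cd34 in one strain and not in another therefore does not show that the strains differed. Without the 3 mice that stood apart, however, Cd34 (adjusted p = 0.0020), Kdr (0.014) and Fcgr2b (0.038) passed, and 8 of the 10 did in all. Without the pair of C57BL/6J mice alone Cd34 passed (adjusted p = 0.0012), but Kdr (0.068) and Fcgr2b (0.062) did not. The gain of Kdr and Fcgr2b without the 3 mice thus came with leaving out PWK/PhJ CD mouse 5 as well. As that mouse was picked for low values in genes that include both, this gain is no separate evidence.

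Each strain was then set against the mean of the other 6. The Lyve1 difference was larger in 129S1/SvImJ, by 1.42 (standard error 0.26, adjusted p = 0.00031) on the log2 scale, and that of Pecam1 by 0.46 (standard error 0.09, adjusted p = 0.00050), where 6.28% of all genes passed. In C57BL/6J Lyve1 alone passed, at 1.08 (standard error 0.20, adjusted p = 0.00024), beside 4.69% of all genes. In CAST/EiJ Lyve1 alone passed, in the other direction, at -0.79 (standard error 0.20, adjusted p = 0.0030), beside 14.5%. DBA/2J had 3 genes with a lower difference than elsewhere, beside 7.77% of all genes. They were Plvap at -0.39 (standard error 0.13, adjusted p = 0.047), Stab1 at -0.32 (standard error 0.09, adjusted p = 0.023) and Pecam1 at -0.29 (standard error 0.09, adjusted p = 0.027). In PWK/PhJ Clec4g alone passed, at -0.32 (standard error 0.10, adjusted p = 0.019), beside 16.3%.

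On CD-TN the level of 9 of the 10 genes differed between the strains, beside 93.7% of all genes tested, a like share. Kdr was the exception (limma-voom adjusted p = 0.22), with means from 68.1 ± 3.52 CPM in DBA/2J to 79.2 ± 5.16 CPM in A/J, and it passed once the 3 mice that stood apart were left out (adjusted p = 0.010). Without the pair of C57BL/6J mice alone it did not pass (adjusted p = 0.11), so its pass came with leaving out PWK/PhJ CD mouse 5 and is no separate evidence. Lyve1 spanned the widest range, 8.53-fold. Its order was PWK/PhJ (40.0 ± 7.75 CPM), CAST/EiJ (35.7 ± 9.04), C57BL/6J (14.0 ± 8.03), A/J (8.11 ± 1.00), DBA/2J (7.14 ± 1.63), 129S1/SvImJ (5.10 ± 1.38) and WSB/EiJ (4.68 ± 1.80), mean ± SD with the numbers of mice given at the start. Each strain in this order overlapped with the next, but CAST/EiJ and C57BL/6J did so only through C57BL/6J CD mouse 2. Without that mouse the highest C57BL/6J mouse had 18.0 CPM, against 25.3 CPM in the lowest CAST/EiJ mouse. On WD-TN, 129S1/SvImJ was at 14.3 ± 3.95 CPM (SD, n = 6) and C57BL/6J at 29.2 ± 4.15 CPM (SD, n = 8).

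Plvap was highest in WSB/EiJ, at 79.8 ± 11.01 CPM, where every mouse lay above every mouse of the next strain, DBA/2J (56.4 ± 3.42 CPM), and it was lowest in A/J (39.2 ± 8.89 CPM). Stab1 was highest in WSB/EiJ (95.2 ± 7.54 CPM) and 129S1/SvImJ (89.9 ± 4.30 CPM), which overlapped with each other and lay apart from C57BL/6J (66.5 ± 7.27 CPM) and the 4 strains below it. Clec4g was lowest in 129S1/SvImJ (30.0 ± 1.51 CPM) and CAST/EiJ (31.8 ± 3.02 CPM), whose mice overlapped, and the mice of PWK/PhJ (40.6 ± 1.63 CPM) lay above those of CAST/EiJ. Fcgr2b was lowest in DBA/2J (54.0 ± 5.15 CPM) and highest in 129S1/SvImJ (83.9 ± 3.96 CPM). DBA/2J met the next strain, PWK/PhJ, only through PWK/PhJ CD mouse 5. Without that mouse the lowest PWK/PhJ mouse had 66.3 CPM of Fcgr2b, against 60.7 CPM in the highest DBA/2J mouse. Vwf went from 6.24 ± 0.916 CPM in A/J to 10.2 ± 1.13 CPM in PWK/PhJ, Cd34 from 1.36 ± 0.170 in 129S1/SvImJ to 3.79 ± 0.541 in PWK/PhJ, Stab2 from 61.3 ± 23.7 in DBA/2J to 99.1 ± 14.2 in WSB/EiJ, and Pecam1 from 23.9 ± 1.84 in 129S1/SvImJ to 34.3 ± 2.32 in WSB/EiJ, and in these 4 genes and in Fcgr2b and Kdr each strain overlapped with its neighbour in the order. Reads of all strains were mapped to the C57BL/6J genome, so a difference in level between strains and a difference in how well their reads mapped cannot be told apart. Unmapped reads averaged 10.8% on CD-TN and 13.3% on WD-TN in CAST/EiJ, against 2.23% and 2.82% in C57BL/6J. In PWK/PhJ they averaged 3.50% and 7.88%. They were more frequent on WD-TN in each strain but DBA/2J (6.45% and 4.77%) and A/J (2.25% and 2.11%). Their part in the diet differences was not tested. Per kilobase of exon, Plvap was the highest of the 10, with a median of 27.5 CPM per kilobase over all mice, followed by Clec4g (15.5) and Fcgr2b (12.2), and Vwf (0.572) and Cd34 (0.287) were the lowest.

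**Figure D4:**
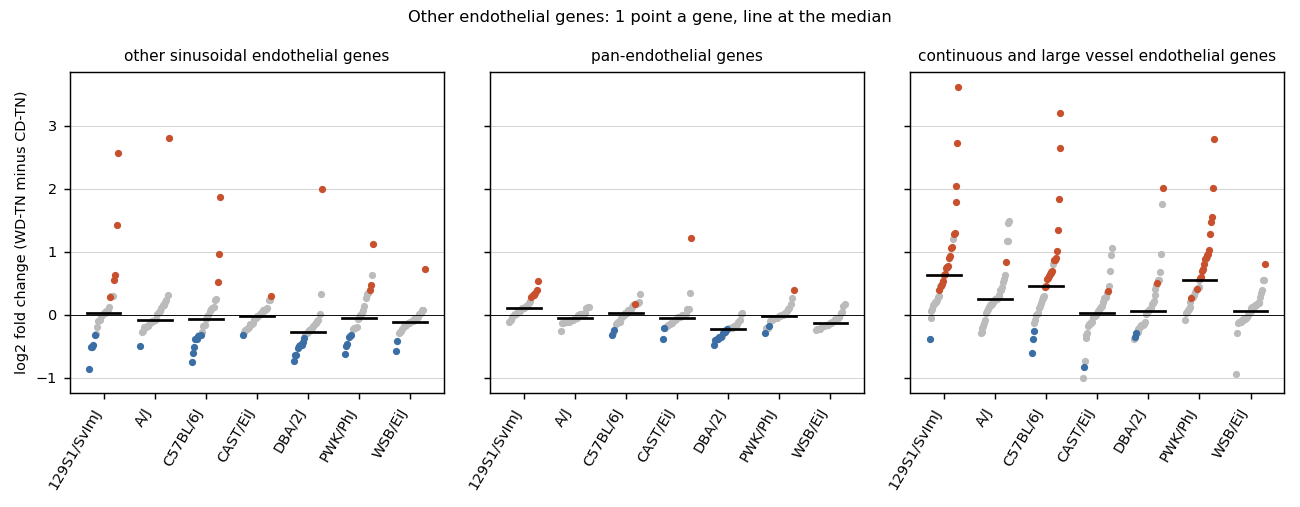
Log2 fold change of WD-TN against CD-TN (vertical axis) of the other endothelial genes, 1 point a gene, in 3 lists by strain (horizontal axes), with a black line at the median. Red and blue points passed an adjusted p below 0.05. The list of continuous and large vessel genes lies mostly above 0 in 129S1/SvImJ, C57BL/6J and PWK/PhJ, and the pan-endothelial list below 0 in DBA/2J.

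Other genes of the same endothelia were listed by hand. Their calls, like those of every other list in this report, are to be read beside the shares of all genes called in each strain, given above. Of 23 other sinusoidal genes that could be tested, 1 rose and 9 fell in DBA/2J, 3 and 7 in C57BL/6J, 5 and 5 in 129S1/SvImJ, 3 and 5 in PWK/PhJ, 1 and 2 in WSB/EiJ, and 1 and 1 in A/J and in CAST/EiJ. The median log2 fold change of the list was -0.28 in DBA/2J and between -0.12 and 0.02 in the other 6. Cd36, the fatty acid transporter, which hepatocytes also make, rose in 6 of the 7 strains, with log2 fold changes from 0.73 in WSB/EiJ to 2.81 in A/J, and had 0.11 in CAST/EiJ. Ctla2a rose in 129S1/SvImJ (1.42) and C57BL/6J (0.96), and Bmp6, the sinusoidal signal that induces hepcidin in hepatocytes, fell in DBA/2J (-0.73). The list had 1 and 12 (up and down) in DBA/2J, 5 and 7 in C57BL/6J and 2 and 7 in PWK/PhJ without the 3 mice.

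Of the 33 genes of continuous and large vessel endothelium, most calls were in the 3 strains in which Pecam1 was called. In 129S1/SvImJ 20 rose and 1 fell, in C57BL/6J 17 and 3, and in PWK/PhJ 17 and 0. The medians were 0.63, 0.46 and 0.55. In the other strains DBA/2J had 2 and 2, CAST/EiJ 1 and 1, and A/J and WSB/EiJ 1 and 0. The largest changes in 129S1/SvImJ were those of the adhesion molecule Sele (3.62, adjusted p = 8.5e-09) and the apelin receptor Aplnr (2.73, adjusted p = 0.00079), both of which had no read in some mice (4 and 20 of 93). The list holds basement membrane genes such as Col4a1 (1.47 in PWK/PhJ), which stellate cells and fibroblasts also make. Without the 3 mice there were 18 and 2 calls (up and down) in C57BL/6J, 16 and 0 in PWK/PhJ and 22 and 1 in 129S1/SvImJ.

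Pan-endothelial genes, which both kinds of endothelium share, numbered 22. In DBA/2J 10 fell and none rose, with a median of -0.22, the largest falls being those of the tight junction gene Cldn5 (-0.47) and the transcription factor gene Sox18 (-0.40). In 129S1/SvImJ 6 rose and none fell, with a median of 0.11. This count was near the 28.0% of all genes called there in either direction, where 14.5% rose and 13.6% fell. In C57BL/6J, CAST/EiJ and PWK/PhJ 1 rose and 2 fell, below the shares of all genes called there (26.2%, 19.5% and 29.6%). In A/J and WSB/EiJ none was called by limma-voom, where at an unadjusted p below 0.05 none rose and 1 and 2 fell. With the 3 mice left out, 11 fell in DBA/2J, and C57BL/6J had 4 and 1 (up and down). The summed level of the list was 484 to 527 CPM on CD-TN and 413 to 489 CPM on WD-TN in DBA/2J and 473 to 531 CPM on CD-TN and 474 to 542 CPM on WD-TN in 129S1/SvImJ.

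Among 11 genes of BMP and angiopoietin signalling, 3 rose and 2 fell in PWK/PhJ, which had the most calls, the largest being Hamp, the hepatocyte gene for hepcidin (-1.50), and Angpt1, a ligand of the Tie2 receptor (0.65). In DBA/2J 4 fell and none rose, and the median was -0.36. Of 9 flow-responsive and Notch genes 3 rose in PWK/PhJ, with Heyl (0.73) and Jag1 (0.46) the largest, 2 rose in 129S1/SvImJ, 1 rose and 1 fell in C57BL/6J and in CAST/EiJ, 1 fell in DBA/2J and none was called in A/J and WSB/EiJ. The PWK/PhJ and 129S1/SvImJ counts were near the shares of all genes called there (29.6% and 28.0%). Those shares count both directions, and 15.1% and 14.5% of all genes rose there. Of 4 lymphatic genes tested, Prox1, which hepatocytes also make, fell in 129S1/SvImJ (-0.53), and no other call was made in the 7 strains. Markers of lipid-associated and recruited macrophages rose beside the vascular genes, all 8 of them in 129S1/SvImJ and C57BL/6J, 7 in PWK/PhJ, 4 in A/J and in WSB/EiJ, 1 in CAST/EiJ and none in DBA/2J. Their largest changes were those of Gpnmb (2.93 in C57BL/6J and 6.48 in 129S1/SvImJ) and Mmp12 (2.64 and 6.25), and Gpnmb had no read in 3 mice. Of 5 cholangiocyte markers 4 rose in PWK/PhJ, Cftr (3.77) and Epcam (2.21) the most, and 1 fell in DBA/2J. Cftr was low, with a median count of 5 over all mice and no read in 1 mouse. Of 11 hepatocyte markers 6 fell and 1 rose in C57BL/6J, with Serpina1e, one of several near-identical copies (-2.01), and Alb (-0.70) the largest, and 2 to 5 fell and none rose in the other 6 strains. The part of these cells in the endothelial differences was not tested.

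Mice of the same group also differed in these genes, and the genes of all 19110 tested that varied most like each of the 10 were found over the 93 mice from log2 CPM centred on the mean of each group, as Pearson's r with no test. The points share the scaling of each library, so that genes of 1 cell type can move together with the share of that cell type's RNA. Kdr varied most like Ptprb (0.83, and 0.70 without the 3 mice), the endothelial phosphatase VE-PTP, and then like F8, the clotting factor made by sinusoids (0.79, and 0.58 without the 3 mice), and the mannose receptor Mrc1 (0.79, and 0.68 without the 3 mice). Stab1 varied like the endothelial TGF-β co-receptor Eng (0.82, and 0.74 without the 3 mice), Cdh5 (0.76, and 0.63 without the 3 mice) and C1qtnf1 (0.74, and 0.63 without the 3 mice). Fcgr2b varied most like Kdr (0.69, and 0.58 without the 3 mice), followed by Cyp4b1 (0.66, and 0.53 without the 3 mice) and Calcrl (0.64, and 0.55 without the 3 mice). Pecam1 varied like Cdh5, the junction gene for VE-cadherin (0.75, and 0.68 without the 3 mice), Adgre5 (0.74, and 0.66 without the 3 mice) and Sdc3 (0.71, and 0.61 without the 3 mice).

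The other 6 follow in the same way, and for several of them the order changed when the 3 mice were left out. For Plvap the closest were then Bgn (0.87), Igfbp7 (0.84) and Sod3, with Cadm3 at rank 55 and Tnfrsf11b at rank 123, for Stab2 its 3 genes fell to ranks 75 to 94, and for Clec4g Timd4 and Colec10 fell to ranks 756 and 7114. Clec4g varied like the sinusoidal nuclease gene Dnase1l3 (0.77, and 0.56 without the 3 mice), Colec10 (0.72, and 0.06 without the 3 mice) and Timd4 (0.70, and 0.30 without the 3 mice). Cd34 varied like Timp2 (0.85, and 0.66 without the 3 mice), Ltbp3 (0.84, and 0.60 without the 3 mice) and Npdc1 (0.84, and 0.57 without the 3 mice). Stab2 varied like Ptprb (0.61, and 0.36 without the 3 mice), Tek (0.61, and 0.37 without the 3 mice) and Vipr1 (0.61, and 0.36 without the 3 mice). Plvap varied like Cadm3 (0.68, and 0.59 without the 3 mice), Sod3 (0.68, and 0.83 without the 3 mice) and Tnfrsf11b (0.65, and 0.53 without the 3 mice), and Lyve1 like Cdh4 (0.58, and 0.52 without the 3 mice), Esm1 (0.52, and 0.41 without the 3 mice) and Ggt5 (0.50, and 0.46 without the 3 mice). Vwf varied like Col6a5 (0.61, and 0.64 without the 3 mice), Cd151 (0.57, and 0.58 without the 3 mice) and Tmem86a (0.57, and 0.58 without the 3 mice). Among the 10 genes themselves, the median r was 0.34 over the 10 pairs of sinusoidal genes, 0.22 over the 10 pairs of vascular genes and 0.21 over the 25 mixed pairs. The highest of the 45 pairs was Fcgr2b with Kdr (0.69), one gene of each kind, and the lowest Clec4g with Cd34 (-0.53, with a Spearman rho of 0.04).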

How the data were processed

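Liver RNA of 93 mice was sequenced and, per the labels, aligned by the authors with STAR 2.7.1a to GRCm38 (mm10), the C57BL/6J genome, for all strains. The deposited values are raw counts of reads per gene. Whether counting used strand is not given in the sources used here. Symbols, exons and positions came from the GRCm38 annotation, and promoters from RefSeq (GRCm38.p6).

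Genes were kept with edgeR 4.0.16 filterByExpr, counts were scaled by TMM, and limma 3.58.1 with voom fitted 1 mean for each of the 14 groups. P-values were adjusted by Benjamini-Hochberg over all 19110 genes tested. The fit was tested on simulated data. CPM used TMM library sizes, and likeness used log2 CPM with a prior count of 2. Alternatives were edgeR and DESeq2 1.42.0 tests, another scaling, other filters, cohort, RIN, sample weights, separate fits and left-out mice. The 10 genes and all lists were chosen with earlier results of these data known. All 10 genes were named. From each list other than the Kupffer cell markers, the 2 called genes with the largest change in the strain with most calls were named. Genes defining cells that also make one of the 10 were named too.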

Additional observations from a re-analysis of the deposited data

Results flagged for a closer look

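In 18 of 140 combinations of gene and group, the highest or lowest mouse stood far from the others by Dixon's test, where chance gives about 1 in 20. Of these, 10 belonged to the 3 mice described in the report. C57BL/6J CD mouse 2 had Cd34 at 16.8 CPM, with the next mouse at 2.43, and was the lowest of its group in Clec4g (24.6 CPM), Fcgr2b (54.0 CPM), Kdr (40.9 CPM) and Stab2 (38.6 CPM). C57BL/6J WD mouse 3 had Cd34 at 15.9 CPM, with the next mouse at 4.24, and was the lowest in Clec4g (26.7 CPM) and Stab2 (42.0 CPM). PWK/PhJ CD mouse 5 was the lowest in Stab1 (34.3 CPM, the next at 54.8) and Pecam1 (16.7 CPM, the next at 25.0).

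The other 8 were spread over 7 mice. Clec4g was low in 129S1/SvImJ WD mouse 6 (24.0 CPM) and PWK/PhJ WD mouse 2 (25.2 CPM) and high in CAST/EiJ WD mouse 4 (34.6 CPM), which was also high in Lyve1 (36.4 CPM). Lyve1 was low in A/J WD mouse 6 (5.08 CPM) and Kdr in DBA/2J CD mouse 2 (61.2 CPM). Pecam1 was low in DBA/2J CD mouse 6 (26.7 CPM) and WSB/EiJ WD mouse 6 (25.9 CPM).

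The difference between the diets itself differed between the strains, by the limma-voom F test over the 7 strains, for Lyve1 (adjusted p = 4.1e-08), Pecam1 (adjusted p = 6.9e-05), Stab1 (adjusted p = 0.0062), Clec4g (adjusted p = 0.0073) and Plvap (adjusted p = 0.014).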

How the results depend on the processing

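No called difference changed its sign under any alternative. Of the 27 called combinations of gene and strain, 26 stayed called by DESeq2 and 25 by edgeR, both losing Cd34 in C57BL/6J, 27 with RIN and 24 with cohort as a covariate, 21 with every gene that had any count and 26 with genes of at least 10 counts in every mouse. Lyve1, Plvap, Pecam1 and Vwf in 129S1/SvImJ and the DBA/2J calls other than Fcgr2b passed under all 12 alternatives. So did Lyve1, Pecam1 and Kdr in C57BL/6J, Clec4g and Vwf in PWK/PhJ, and Vwf in WSB/EiJ. The number of genes called moved by over 1.5 times in these cases, the cause of which was not tested. With sample quality weights it was 8 in 129S1/SvImJ, 3 in A/J, 0 in CAST/EiJ and 7 in PWK/PhJ. With a separate fit for each strain it was 9 in 129S1/SvImJ, 3 in A/J, 3 in C57BL/6J and 1 in CAST/EiJ. CAST/EiJ had 1 with upper-quartile scaling, 1 with cohort as a covariate and 0 with genes of any count, and WSB/EiJ had 1 with genes of any count. The genes whose diet difference depended on the strain numbered 8 with sample quality weights and 8 without the 3 mice that stood apart, and A/J had 2 without those 3, an alternative chosen after seeing the data. Leaving out 1 A/J mouse at a time gave 0 to 1 called gene in A/J, the 0 being without CD mouse 2. The smallest of the 10 genes, Cd34, had counts down to 44. No paired analysis was possible because the labels give the mice no replicate numbers shared between groups.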

Other observations

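On WD-TN the range of Lyve1 between the strains was 15.4-fold, against 8.53-fold on CD-TN. The order of the means was PWK/PhJ (49.0 ± 5.30 CPM, SD, n = 7), C57BL/6J (29.2 ± 4.15), CAST/EiJ (26.8 ± 4.34), 129S1/SvImJ (14.3 ± 3.95), A/J (8.69 ± 1.88), DBA/2J (6.88 ± 1.40) and WSB/EiJ (3.18 ± 1.84). PWK/PhJ lay above every C57BL/6J mouse, CAST/EiJ above every 129S1/SvImJ mouse and 129S1/SvImJ above every A/J mouse. C57BL/6J and CAST/EiJ overlapped, as did A/J, DBA/2J and WSB/EiJ with their neighbours. Kdr, which had a 1.16-fold range on CD-TN, had a 1.45-fold range on WD-TN, with A/J highest (74.3 ± 6.38 CPM, SD, n = 6) and C57BL/6J (51.3 ± 7.45 CPM, SD, n = 8) and DBA/2J (51.5 ± 6.20 CPM, SD, n = 7) lowest. Stab2 on WD-TN was highest in A/J (122.9 ± 9.66 CPM, SD, n = 6) and lowest in PWK/PhJ (61.7 ± 6.73 CPM, SD, n = 7).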
